A study of Mus musculus with 14 samples.

Results

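The oligodendrocyte lineage and precursor genes are 6 genes of the mouse striatum: Olig1, Olig2, Sox10 and Nkx2-2, which encode transcription factors, and Pdgfra and Cspg4, which encode surface proteins. They were chosen by name, as all probe sets that the platform annotation assigns to one of these symbols. That gave 10 probe sets of the 22626 tested, and 6 of the 12393 genes with a probe set of a single symbol. Sox10 was measured by 3 probe sets, Pdgfra and Cspg4 by 2 each, and the other members by 1 each.

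The study measured total RNA labelled as striatum on 14 Affymetrix arrays, 7 from R6/2 mice and 7 from wild-type mice. R6/2 mice carry, as background, a transgene with the human HTT promoter and the first exon of HTT with an expanded CAG repeat. They are a fast model of Huntington's disease, and no probe set for the transgene was analysed here. Both genotypes had a mixed CBA and C57BL/6 background and were 6 weeks old. All animals of both genotypes were controls of 2 drug studies and had received normal saline 30 to 60 minutes before they were killed, so no untreated mouse was measured. The sample titles begin with M.C or Mith, and this start was taken as a cohort of 4 arrays per genotype (M.C, replicates 1 to 4) or 3 per genotype (Mith, replicates 5 to 7). Animals are mentioned in the labels, but not whether every array stands for its own animal; the p-values therefore describe the spread among arrays, which may be technical.

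Oligodendrocytes, the cells that make myelin, form from precursor cells that stay in the adult brain. As background, precursors are recognised by Pdgfra, the receptor through which platelet-derived growth factor keeps them dividing, and by Cspg4, the NG2 proteoglycan, both of which are lost as the cells mature. Olig1, Olig2 and Sox10 are present from the precursor to the myelinating cell, and Nkx2-2 is highest around the start of differentiation. Pdgfra is also made by fibroblasts of the brain's coverings and Cspg4 by pericytes, so neither marks precursors alone.

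Values are log2 probe set signals, all arrays having been shifted to the same median. The array medians before centring ran from 7.07 to 7.17. The deposited values hold no detection calls. The 3 TrpnX control probe sets, for which no RNA was added, ran from 3.49 to 4.57, and the lowest member value on any array was 6.11. By mean signal, Nkx2-2 stood at percentile 37.1 of all probe sets, Olig2 at 39.9 and Pdgfra at 41.0 (1421917_at) and 49.8 (1421916_at). The remaining member probe sets stood from 50.6 (Cspg4 1423341_at) to 95.4 (Olig1). Whether the signal of the dimmer members was specific was not tested. Genes of striatal projection neurons were bright on every array, with Penk between 10.63 and 12.19 and Ppp1r1b between 9.45 and 11.04. The Actb control probe sets gave a larger difference between the 3' and 5' ends in R6/2, 0.61 ± 0.18 (SD, n = 7) against 0.37 ± 0.14 in wild-type (exact two-sided permutation within cohorts, p = 0.0186). The Gapdh control probe sets did too, 0.217 ± 0.207 against 0.0262 ± 0.0665 (same exact permutation, p = 0.0143); adjusted over both, each p was 0.0186. Such differences are commonly used as a check of RNA quality and labelling, and that of Actb was added as a covariate in an alternative fit; its part in the member differences was not tested further. R6/2 replicate 4 correlated least with the other arrays of its cohort (mean Spearman 0.981).

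Olig2 fell in R6/2 and was the member whose difference passed the test over both cohorts. The other 9 member probe sets gave differences from -0.32 (Olig1) to -0.01 (a Sox10 probe set) that did not pass. All 10 were below 0, where 45.2% of all probe sets were, and their median was -0.20 against 0.01 for all probe sets. The count of called members was thus 1 of 10, set against 2.55% of all probe sets called in either direction, 2.19% called lower and 0.362% called higher. An unadjusted p under 0.05 was reached by 8 of the 10, against 15.2% of all probe sets. The members were measured on the same arrays and several share a gene, so these counts are not independent.

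**Figure D1:**
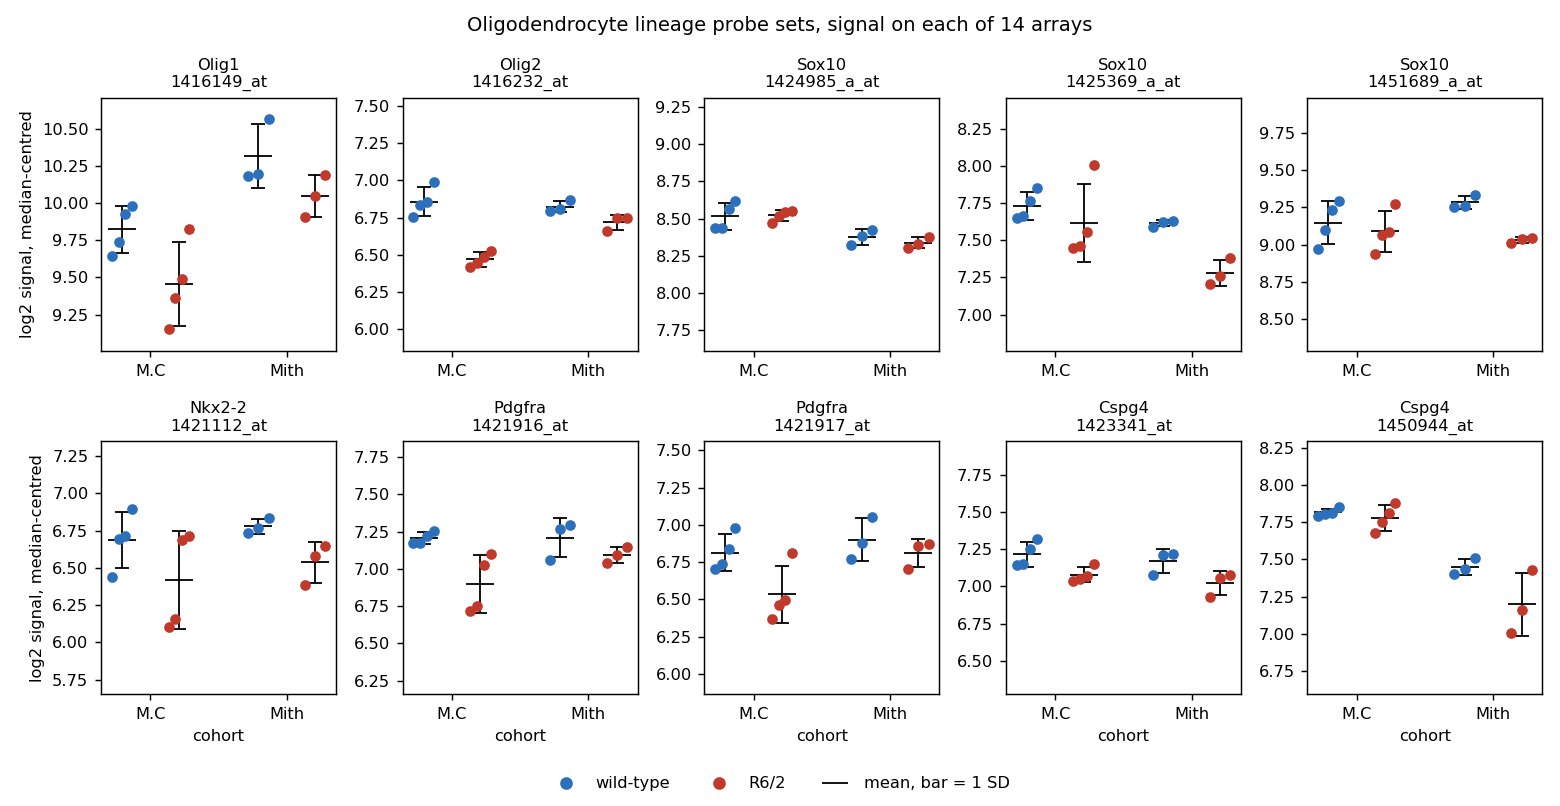
Log2 signal (vertical axis, each panel spanning the same number of log2 units) of the 10 member probe sets on each array, by cohort (horizontal axis), with wild-type arrays in blue, R6/2 arrays in red, and black lines for the group mean and 1 SD. The Olig2 panel shows every R6/2 array below every wild-type array within each cohort; the Cspg4 1450944_at panel shows every M.C array above every Mith array.

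Olig2, a basic helix-loop-helix factor required to form the lineage, read 6.42, 6.44, 6.53 and 6.49 on the 4 R6/2 arrays of M.C. The 4 wild-type arrays of that cohort read 6.75, 6.83, 6.85 and 6.99, so every R6/2 array lay below every wild-type array. In Mith the R6/2 arrays read 6.74, 6.66 and 6.75 and the wild-type arrays 6.80, 6.87 and 6.81. The genotypes did not overlap there either, but the closest arrays were near each other. Over both cohorts the highest R6/2 array, 6.750, lay just under the lowest wild-type array, 6.755; 0.389% of all probe sets had every R6/2 array below every wild-type array, and 1.05% had so within each cohort.

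Over both cohorts Olig2 differed by -0.27 ± 0.058 (SE, n = 7 per genotype; limma, adjusted p = 0.0212), a level of 83.1% of wild-type. Within M.C it fell by 0.39 ± 0.064 to 76.4% of wild-type (adjusted p = 0.00317), where 3.21% of all probe sets were called and 2.94% were called lower. Within Mith its difference was -0.10 ± 0.074 (adjusted p = 0.709), where 0.0221% of all probe sets, 5 in number, were called. The within-cohort comparisons use the same arrays as the one over both cohorts and are not further evidence. The test of the difference between cohorts gave -0.28 ± 0.098 (limma, adjusted p = 0.381). No probe set passed that limma test after adjustment, the lowest adjusted p being 0.111, while 2213 had an unadjusted p under 0.05, Olig2 among them. In the order of group means, R6/2 in M.C was lowest at 6.47 ± 0.048 (SD, n = 4), then R6/2 in Mith at 6.72 ± 0.05 (n = 3). Wild-type in Mith at 6.82 ± 0.038 and in M.C at 6.86 ± 0.097 stood last and did not differ beyond their spread.

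The Olig2 call over both cohorts was lost with the Actb difference as a covariate (-0.24 ± 0.076, adjusted p = 0.228). It was also lost without R6/2 replicate 1 (adjusted p = 0.0567), wild-type replicate 3 (0.0569) or wild-type replicate 4 (0.0511), and without a term for cohort (0.0907). The call within M.C held without each of the 14 arrays in turn and with the covariate. Leaving out a Mith array cannot move the M.C difference and alters only the shared spread and the adjustment. Without R6/2 replicate 4, the array least like its cohort, Olig2 was at -0.26 ± 0.06 (adjusted p = 0.0257).

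The start of Olig2 is shown because it is the member that passed the test. On assembly GRCm38.p6 Olig2 lies on chromosome 16 at positions 91225550 to 91228677, and Olig1 lies 41091 bases further on, at 91269769 to 91271939. RefSeq's promoter table held a window for 4 of the 6 members, and not for Olig1 and Sox10. The 250 bases before the annotated start, on the plus strand, chr16:91225300-91225549, are printed with capitals for matches to the motifs searched.

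Olig2 promoter: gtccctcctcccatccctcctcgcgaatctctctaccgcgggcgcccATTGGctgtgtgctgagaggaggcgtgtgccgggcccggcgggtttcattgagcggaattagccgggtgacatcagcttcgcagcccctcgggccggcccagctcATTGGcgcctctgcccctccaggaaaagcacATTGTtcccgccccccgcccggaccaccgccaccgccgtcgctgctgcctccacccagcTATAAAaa

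The motifs were CCAAT, the core letters ACAAT bound by SOX proteins, the TATA box TATAAA, and CANNTG, the E-box bound by helix-loop-helix proteins, on both strands; none of them overlapped in this window. CCAAT matched, as ATTGG, with its first base 203 and 98 bases before the start, ACAAT matched as ATTGT at 67 bases, and TATAAA matched at 8 bases. No CANNTG stands in these letters. Of 32851 promoter windows of this length, 33.9% held CCAAT, 27.7% ACAAT, 12.4% TATAAA and 66.2% CANNTG, so no match here is rare. The window is 66.8% G and C. RefSeq's windows of Nkx2-2 and Pdgfra lie inside the gene positions given for these genes here, and that of Cspg4 lies before its first base. Nkx2-2 held 3 CANNTG and 1 ACAAT, Pdgfra 1 CANNTG, and Cspg4 1 ACAAT.

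Olig1, the neighbouring helix-loop-helix factor, needed for myelination and for repair of myelin, read 9.36, 9.82, 9.49 and 9.15 on the R6/2 arrays of M.C. The wild-type arrays there read 9.74, 9.64, 9.92 and 9.98, so 1 R6/2 array, replicate 2, lay within the wild-type range. In Mith the R6/2 arrays read 10.19, 10.05 and 9.90 and the wild-type arrays 10.18, 10.20 and 10.56; the highest R6/2 array reached the wild-type range. The difference was -0.32 ± 0.095 over both cohorts (79.9% of wild-type, adjusted p = 0.0837), the lowest of the members. It was -0.37 ± 0.13 within M.C (adjusted p = 0.148) and -0.27 ± 0.15 within Mith (adjusted p = 0.594). Without R6/2 replicate 2 the difference was -0.39 and passed the test (adjusted p = 0.0325), as it did with arrays weighted by their quality (0.0248). With the Actb covariate it was -0.41 ± 0.12 (0.209), and without a cohort term the adjusted p was 0.546.

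The larger contrast in Olig1 was between the cohorts. It was lower in M.C than in Mith by 0.54 on the log2 scale (-0.54 ± 0.096, adjusted p = 5.04e-04), with genotype as a term; 32.3% of all probe sets differed between the cohorts, and 17.0% of all were lower in M.C. The group means ran in the order R6/2 in M.C 9.46 ± 0.28, wild-type in M.C 9.82 ± 0.16, R6/2 in Mith 10.05 ± 0.14, and wild-type in Mith 10.31 ± 0.21 (SD). Each group's neighbour in that order lay within the sum of their SDs.

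Sox10, a SOX-family factor that drives myelin genes, lies on chromosome 15 at 79154913 to 79164490, and its 3 probe sets did not behave alike. On the brightest, 1451689_a_at, the M.C arrays read 8.94, 9.27, 9.06 and 9.08 in R6/2 and 9.10, 8.97, 9.23 and 9.29 in wild-type, with both genotypes over the same range. The Mith arrays read 9.04, 9.01 and 9.04 in R6/2 and 9.34, 9.26 and 9.26 in wild-type, which did not overlap. The difference was -0.06 ± 0.081 within M.C (adjusted p = 0.762), -0.25 ± 0.094 within Mith (0.381) and -0.14 ± 0.064 over both (0.302). With the Actb difference as a covariate the value over both moved to -0.21 ± 0.08 (limma, adjusted p = 0.313).

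Probe set 1425369_a_at read 7.45, 7.55, 7.46 and 8.002 in R6/2 and 7.65, 7.85, 7.66 and 7.76 in wild-type within M.C. R6/2 replicate 4 was thus above every wild-type array while the other 3 R6/2 arrays were below all of them. In Mith it read 7.38, 7.26 and 7.21 against 7.62, 7.63 and 7.59, again without overlap. The difference over both cohorts was -0.21 ± 0.08 (adjusted p = 0.202), and without R6/2 replicate 4 it was -0.29 and passed the test (0.00657), as it did with weighted arrays (-0.26, 0.016). With the Actb covariate it was -0.08 ± 0.092 (0.801). The remaining probe set, 1424985_a_at, ran from 8.30 to 8.55 over the R6/2 arrays, median 8.47, and from 8.32 to 8.62 over the wild-type arrays, median 8.44. Its difference was -0.01 ± 0.047, with a 95% interval from -0.11 to 0.09 (adjusted p = 0.934), an interval that ends short of the difference of Olig2. The probe sets are marked _a_, which the maker gives to sets that match several transcripts of 1 gene, and which transcripts each one reads was not analysed here.

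Nkx2-2, a homeobox factor that promotes differentiation of precursors, lies on chromosome 2 at 147176485 to 147195434. Within R6/2 of M.C it had the largest SD of the members, 0.33, and the arrays read 6.71, 6.69, 6.16 and 6.11. The wild-type arrays there read 6.72, 6.44, 6.69 and 6.89, so replicates 3 and 4 of R6/2 lay below all wild-type arrays and replicates 1 and 2 among them. In Mith R6/2 read 6.65, 6.58 and 6.38 and wild-type 6.84, 6.73 and 6.77, without overlap. The difference was -0.27 ± 0.13 within M.C (adjusted p = 0.319), -0.24 ± 0.15 within Mith (0.658) and -0.26 ± 0.097 over both (83.6% of wild-type, 0.193). With the Actb difference as a covariate the value over both moved to -0.44 ± 0.11 (adjusted p = 0.109).

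Pdgfra, the receptor for platelet-derived growth factor A, lies on chromosome 5 at 75151322 to 75198206. On probe set 1421916_at the M.C arrays read 6.75, 7.03, 6.72 and 7.10 in R6/2, all below the wild-type arrays at 7.22, 7.17, 7.25 and 7.17. In Mith the arrays read 7.15, 7.09 and 7.04 in R6/2 and 7.27, 7.06 and 7.30 in wild-type, where wild-type replicate 6 lay among the R6/2 arrays. The difference was -0.31 ± 0.087 within M.C (80.8% of wild-type, adjusted p = 0.0673), -0.12 ± 0.10 within Mith (0.793) and -0.23 ± 0.068 over both (85.6%, 0.0934). It passed the test without R6/2 replicate 4 (-0.25, adjusted p = 0.0462), without wild-type replicate 6 (-0.26, 0.0454) and with weighted arrays (-0.31, 0.00849). With the Actb covariate it was -0.18 ± 0.088 (0.446).

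On probe set 1421917_at the M.C arrays read 6.46, 6.81, 6.50 and 6.37 in R6/2 and 6.74, 6.70, 6.83 and 6.98 in wild-type, with R6/2 replicate 2 inside the wild-type range. The Mith arrays read 6.87, 6.86 and 6.71 against 6.77, 6.88 and 7.05, which overlapped. The difference over both cohorts was -0.20 ± 0.075 (adjusted p = 0.198), near that of the first probe set. With the Actb covariate it moved to -0.25 ± 0.097 (limma, adjusted p = 0.347), while that of the first probe set moved toward 0. Group means of 1421916_at stood in the order R6/2 in M.C 6.90 ± 0.19, R6/2 in Mith 7.09 ± 0.052, wild-type in M.C 7.21 ± 0.04 and wild-type in Mith 7.21 ± 0.13 (SD), the last pair being level.

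Cspg4, the NG2 chondroitin sulfate proteoglycan, lies on chromosome 9 at 56865104 to 56899870. Probe set 1423341_at read 7.15, 7.05, 7.04 and 7.07 in R6/2 and 7.32, 7.14, 7.15 and 7.25 in wild-type within M.C; 1 R6/2 array reached the wild-type range. In Mith it read 7.05, 7.08 and 6.93 in R6/2 and 7.08, 7.22 and 7.21 in wild-type, where the genotypes touched but did not overlap. The difference was -0.14 ± 0.067 within M.C, -0.15 ± 0.077 within Mith and -0.14 ± 0.049 over both (90.5% of wild-type, adjusted p = 0.149).

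The brighter Cspg4 probe set, 1450944_at, gave -0.04 ± 0.081 within M.C (adjusted p = 0.864), with R6/2 at 7.81, 7.68, 7.75 and 7.88 and wild-type at 7.81, 7.85, 7.79 and 7.80. In Mith R6/2 read 7.43, 7.01 and 7.16 and wild-type 7.51, 7.40 and 7.43, a difference of -0.25 ± 0.093 (adjusted p = 0.379). Over both cohorts the difference was -0.13 ± 0.065 (adjusted p = 0.364), and -0.08 with the Actb covariate. This probe set was higher in M.C than in Mith by 0.47 ± 0.065 (adjusted p = 6.08e-05), opposite to Olig1, and all 8 M.C arrays lay above all 6 Mith arrays. Sox10 1424985_a_at (0.16, adjusted p = 0.0149) and 1425369_a_at (0.23, 0.0398) were also higher in M.C. The last of these calls was lost without R6/2 replicates 2, 5, 6 or 7 or wild-type replicates 2, 4 or 7, each left out alone, with adjusted p up to 0.0997. The other 6 member probe sets did not pass the comparison of cohorts. Among all probe sets 32.3% passed that comparison, 15.3% being higher in M.C and 17.0% lower.

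**Figure D2:**
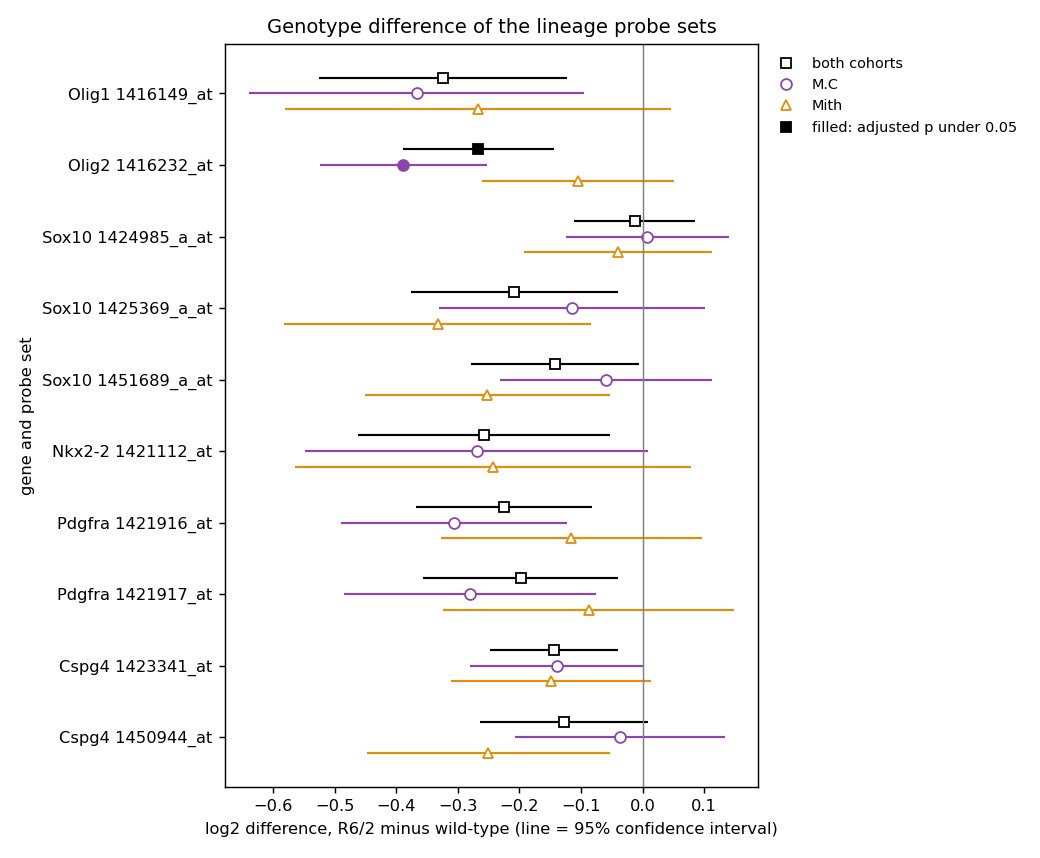
Log2 difference of R6/2 minus wild-type (horizontal axis) for each member probe set (vertical axis), over both cohorts (squares), within M.C (circles) and within Mith (triangles), with lines for the 95% confidence interval and filled symbols for an adjusted p under 0.05. Olig2 is filled over both cohorts and within M.C, and for 8 of 10 probe sets the interval over both cohorts lies below 0.

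Set side by side, the cohorts differed in which members were lowest. Within M.C 9 of 10 probe sets were below 0 and 2, Olig2 and Pdgfra 1421916_at, had every R6/2 array below every wild-type array, against 6.33% of all probe sets. Within Mith 10 of 10 were below 0 and 5 did not overlap, against 6.34% of all probe sets: Olig2, both Sox10 1425369_a_at and 1451689_a_at, Nkx2-2 and Cspg4 1423341_at. The median over members was -0.20 in each cohort. None of the 10 passed the test of a difference between cohorts after adjustment (10 tests among 22626), and Olig2 alone had an unadjusted p under 0.05 in it.

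Beyond the members, 4 genes of the precursor surface and matrix fell in R6/2. Of 20 listed, 15 were measured, 4 fell over both cohorts and none rose, with a median of -0.14; over all 12393 genes 2.08% were called lower, 0.444% higher, and the median was 0.01. Cacng4, a regulator of AMPA receptors, differed by -0.39 ± 0.076 (adjusted p = 0.0127), and held that call without each array in turn. Bcan, the matrix proteoglycan brevican, differed by -0.27 ± 0.06 (0.0254) and Ednrb, an endothelin receptor, by -0.29 ± 0.066 (0.0256). Ptprz1, a receptor phosphatase of precursors and astrocytes, gave -0.14 (adjusted p = 0.312), and Vcan, the proteoglycan versican, 0.04 (0.814). The Bcan call was lost without R6/2 replicates 1, 6 or 7 or wild-type replicates 3, 4 or 7 (adjusted p up to 0.0627, each left out alone). The Ednrb call was lost without R6/2 replicates 1, 2 or 3 or wild-type replicates 4 or 7 (up to 0.0634). All 3 named calls were lost with the Actb covariate (adjusted p from 0.150 to 0.260), where Cacng4 was at -0.30 ± 0.094, Bcan at -0.29 ± 0.078 and Ednrb at -0.26 ± 0.086. Without a cohort term the calls of Bcan (adjusted p = 0.247) and Ednrb (0.0743) were lost. That of Bcan was also lost after quantile normalization (0.124). The part of astrocyte RNA in the falls of this list was not tested.

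Other transcription factors of the lineage gave 3 falls among 23 measured of 26, no rise, and a median of -0.11. Id4 and Id2 encode inhibitors of helix-loop-helix factors that restrain differentiation, and differed by -0.48 ± 0.12 (71.9% of wild-type, adjusted p = 0.0434) and -0.34 ± 0.088 (0.0472). Sox6, which holds precursors undifferentiated, differed by -0.25 ± 0.063 (0.0418), and Sox9, a factor of glial precursors and astrocytes, by -0.06 (0.71). All 3 calls were near the threshold. With 1 array left out at a time, that of Sox6 held only without R6/2 replicates 1, 4, 5 or 6 or wild-type replicate 5. That of Id4 held only without R6/2 replicate 5 or wild-type replicates 4, 5 or 6, and that of Id2 only without R6/2 replicates 4 or 5 or wild-type replicate 6. The highest adjusted p reached was 0.106 for Sox6 and 0.103 for Id4, both without wild-type replicate 3, and 0.104 for Id2 without wild-type replicate 1. With the Actb covariate none of the 3 passed (0.201 to 0.300), though Sox6 was at -0.28 ± 0.083, Id4 at -0.48 ± 0.16 and Id2 at -0.32 ± 0.12. Without a cohort term none of the 3 passed either (adjusted p 0.121 for Sox6, 0.127 for Id4 and 0.282 for Id2). Id2 also did not pass on the deposited scale (0.0632) or after quantile normalization (0.0641). Tcf7l2 of this list was also counted among the newly formed oligodendrocyte and the thalamic neuron genes. The part of astrocyte and neuron RNA in the falls of this list was not tested.

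Among ligands, receptors and other signals to precursors, 25 of 26 were measured, 1 fell and none rose, with a median of -0.04. The one was Ptch1, the receptor and transcriptional target of hedgehog signalling, at -0.48 ± 0.11 (71.8% of wild-type, adjusted p = 0.0322); its call was lost with the Actb covariate, where the difference was -0.57 ± 0.14 (0.127). With 1 array left out at a time it was also lost without R6/2 replicates 1, 3 or 6 or wild-type replicates 1, 2, 3, 4 or 7 (adjusted p up to 0.0827). The fit without a cohort term lost the Ptch1 call too (adjusted p = 0.202). Pdgfa, the ligand of Pdgfra, gave 0.02 (adjusted p = 0.927), Pdgfrb, the related receptor of pericytes, -0.08 (0.649), and Erbb3, a neuregulin receptor of the lineage, -0.17 (0.167).

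Later stages differed from one another in their counts. Of 8 newly formed oligodendrocyte genes measured of 13, none was called and the median was -0.05. Fyn, a kinase of early differentiation, gave -0.11 (adjusted p = 0.431). Gpr17, Tns3 and Bcas1 of this list were not measured. The mean of the 8 genes, each relative to its own mean over the 14 arrays, did not overlap within Mith. It ran there from -0.04 to 0.03 in R6/2 and from 0.10 to 0.14 in wild-type. Within M.C it overlapped, from -0.10 to 0.04 in R6/2 and from -0.15 to 0.05 in wild-type. Of 24 mature oligodendrocyte genes measured of 30, 12 fell and none rose, with a median of -0.29. Car2, a carbonic anhydrase of oligodendrocytes, differed by -0.67 (adjusted p = 9.62e-04), Ugt8a, the enzyme that makes galactosylceramide, by -0.79 (0.00148) and Tspan2, a tetraspanin, by -0.67 (0.00295), while Mbp, myelin basic protein, gave -0.12 (0.517). With 1 array left out 7 to 14 of the mature genes were called, 7 being the count without R6/2 replicate 7 or wild-type replicates 3, 4 or 7. With the Actb covariate 5 were called, Car2, Ugt8a and Tspan2 among them, and without a cohort term 1, when Ugt8a (adjusted p = 0.314) and Tspan2 (0.380) did not pass. That this list was lower was known from earlier results of these data and is no independent support. Genes of dividing cells gave no call among 11 and a median of 0.02. Mki67 of that list was dim, at percentile 20.9 of all probe sets by mean signal, and whether a change could have been seen was not tested.

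**Figure D3:**
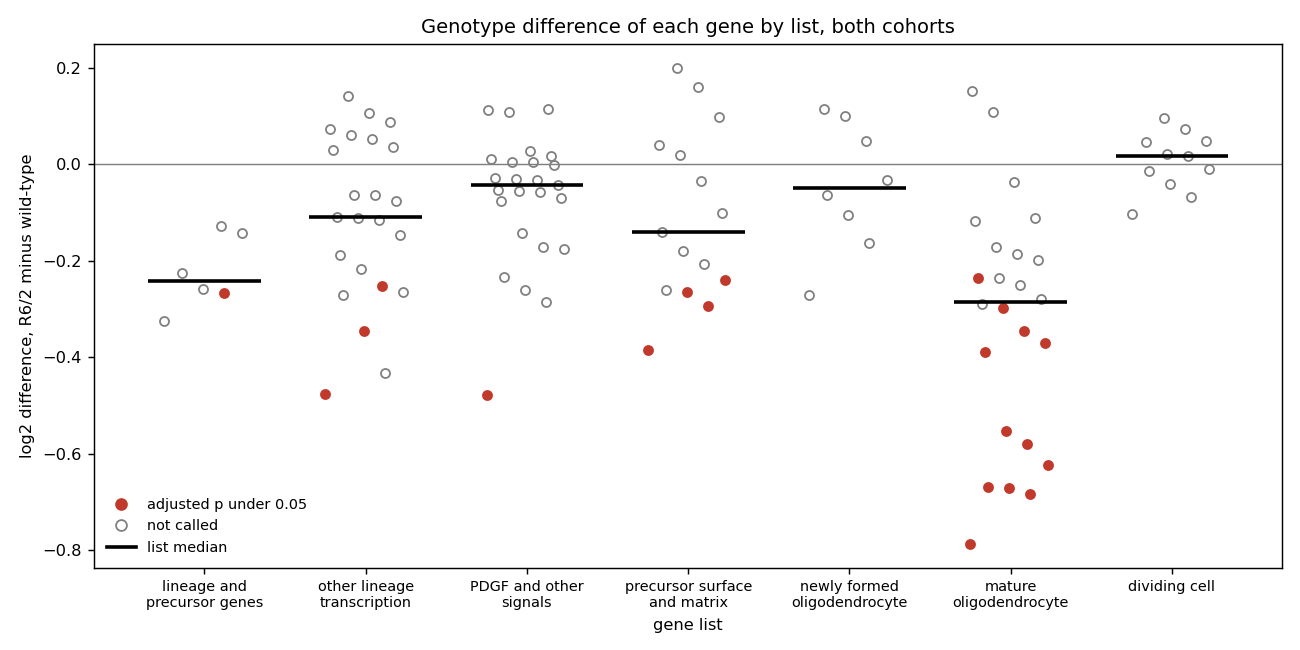
Log2 difference of R6/2 minus wild-type over both cohorts (vertical axis) for each gene of 7 lists (horizontal axis; sideways spread is only for legibility), with filled red points for an adjusted p under 0.05 and a bar at the list median. The mature oligodendrocyte list holds 12 filled points and the members hold 1.

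Markers of other cells were read beside the members, since in bulk tissue fewer cells of a type and less RNA per cell cannot be told apart. The level of a list on an array is the mean of its genes, each relative to its own mean over the 14 arrays. For the 6 members it ran from -0.22 to -0.01 in R6/2 and from -0.01 to 0.19 in wild-type within M.C, where 1 wild-type array lay below the highest R6/2 array. Within Mith it ran from -0.12 to 0.03 and from 0.09 to 0.19. Pericyte genes, which share Cspg4 expression as background, gave 0 of 10 called, and their level ran from -0.02 to 0.07 in R6/2 and from -0.05 to 0.07 in wild-type within M.C. Within Mith it ran from -0.10 to 0.03 in R6/2 and from -0.02 to 0.05 in wild-type; its part in the Cspg4 difference there was not tested. Fibroblast genes, which share Pdgfra, gave 0 of 7 called and a median difference of -0.03, and endothelial genes 0 of 9 and -0.07.

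Astrocyte genes gave 0 of 12 called over both cohorts but a median of -0.25, beside -0.24 for the 6 member genes; 2 of them fell within M.C. Over both cohorts 0 to 4 were called with 1 array left out (2 when R6/2 replicate 5 was omitted, 4 for wild-type replicate 5 and 1 for wild-type replicate 6), and up to 2 in the other fits. Their level ran from -0.30 to -0.11 in R6/2 and from 0.00 to 0.19 in wild-type within M.C, and overlapped in Mith (-0.09 to 0.16 and 0.04 to 0.30). Projection neuron genes, measured for 11, gave 7 falls and a median of -0.61; the falls were 7 to 10 with 1 array left out and 1 with the Actb covariate. Genes of thalamic neurons, which a dissection beyond the striatum would bring in, gave 0 of 11 called over both cohorts. Their median was -0.06 within M.C and -0.50 within Mith, where their level ran from -0.11 to 0.30 in R6/2 and from 0.32 to 0.89 in wild-type. Microglia genes gave 0 of 11 called over both cohorts and a median of -0.05. Their level did not overlap within M.C, at -0.09 to -0.01 in R6/2 and 0.02 to 0.15 in wild-type, and within Mith it ran from 0.01 to 0.03 and from -0.10 to 0.03. Genes of ventricular progenitors gave 0 of 10 called and a median of 0.02. The choroid plexus gave 0 of 6, though its gene Ttr ran from 8.43 to 13.4 over the arrays. The part of astrocyte, microglia, projection neuron and thalamic RNA in the member differences was not tested.

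Between the cohorts, mature oligodendrocyte genes moved as Olig1 did and not as Cspg4 did: 18 of 24 were lower in M.C, with a median of -0.43, where 14.9% of all genes were lower and the median was 0.02. Thalamic neuron genes were lower in M.C for 7 of 11, with a median of -0.65. The mature list's level ran from -0.25 to 0.17 in wild-type of M.C and from 0.42 to 0.51 in wild-type of Mith, without overlap. The part of these cells' RNA in the cohort differences of the members was not tested.

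**Figure D4:**
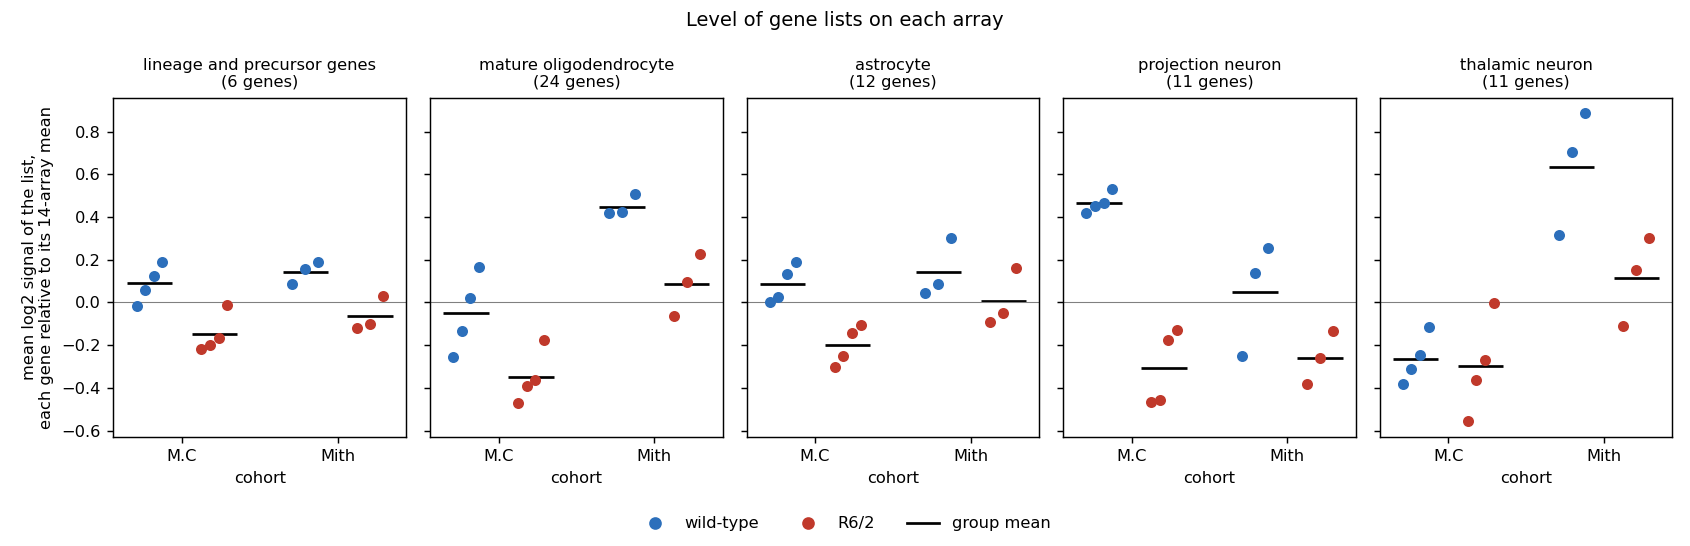
Level of 5 gene lists (vertical axis, mean log2 signal with each gene relative to its own mean over 14 arrays) on each array, by cohort (horizontal axis), with wild-type in blue, R6/2 in red and a black line at the group mean. The members' R6/2 arrays lie between -0.22 and 0.03 and the wild-type arrays between -0.01 and 0.19, while wild-type arrays of the mature oligodendrocyte list lie at 0.42 to 0.51 in Mith and at -0.25 to 0.17 in M.C.

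The genes whose values ran most like each member over the 14 arrays, after each cohort's mean was subtracted, were taken from 7102 genes of upper-half mean (7101 where the member is among them). Both genotypes enter, so part of each likeness is the genotype difference, and no p is given. For Olig1 they were Ephx1 (Pearson r 0.958, Spearman rho 0.934), Adamts4 (0.945, 0.991) and Etnk1 (0.938, 0.912). For Olig2 they were Egr1 (0.950, 0.934), B3gnt2 (0.940, 0.960) and Tpm1 (0.939, 0.925), of which Egr1 is an immediate early gene of neurons and all 3 were themselves called lower, with Egr1 at -0.65 (adjusted p = 0.00318). Those of Sox10 were Elovl6 (0.886, 0.767), Pllp (0.882, 0.749), a myelin protein gene, and Slc9a3r1 (0.877, 0.815). Nkx2-2 ran with Map4 (r 0.834), Rap2a (0.823) and Clic4 (0.810), Pdgfra with Tmem38a (0.865), Usp21 (0.863) and Id2 (0.855), and Cspg4 with Nudt22 (0.943), Atp2a1 (0.836) and Tigd5 (0.819).

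Among the members themselves, measured the same way, Olig1 and Pdgfra 1421917_at ran closest (r 0.953, rho 0.974), R6/2 replicate 2 being the highest R6/2 array of M.C in both. Olig1 and Olig2 gave r 0.632 and the Pdgfra pair of probe sets 0.60. The Cspg4 pair gave 0.37 and the Sox10 probe sets 0.15, 0.58 and 0.44.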

How the data were processed

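The authors deposited 1 table of log2 probe set signals for 14 arrays. Its range over the tested probe sets, 2.96 to 13.9, gave the log2 unit. Their summary and normalization steps are not given in the sources used here. No scanner files were used, so background was not modelled. The table held 0 columns of other samples. Of 22690 probe sets, 64 controls were left out of tests. Array medians spanned 0.108, over the limit of 0.1, and were therefore made equal.

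Gene symbols are those of the platform table, updated by gene ID: 20380 probe sets had 1 symbol, 691 several and 1555 none. For each gene the probe set with the highest mean was used, passing over sets marked cross-hybridising. Genotype was tested with limma 3.58.1 in R 4.3.3 (moderated, two-sided), with cohort as a term, on all 22626 probe sets; calls have a p under 0.05 after Benjamini-Hochberg adjustment. Within-cohort differences, their interaction and the cohort difference came from fits on all 14 arrays, which share 1 estimate of the spread. The code was tested on simulated data.

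All members were named. From each other list the text gives counts, up to 3 called genes of smallest p, and up to 3 genes named whatever their value. Gpr17, Tns3 and Bcas1 were among these but had no probe set of a single symbol and were not analysed here. The members and lists were chosen with earlier results of these data known. Promoter windows are RefSeq's on GRCm38.p6. The number of arrays limits the precision. Alternatives were the deposited scale, quantile normalization, only probe sets above the median level, a trended and robust prior, no cohort term, array weights, 1 cohort alone, the Actb difference as a covariate, and leaving out each array.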

Additional observations from a re-analysis of the deposited data

How the results depend on the processing

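Over both cohorts 578 probe sets were called, against 56 with the Actb covariate, 100 without a cohort term, 1333 with array weights, and 280 to 879 with 1 array left out. The member probe sets called there were 1, against 0 with the Actb covariate, 0 without a cohort term, 4 with array weights, and 0 to 3 with 1 array left out. Within M.C 727 were called, against 362 with the Actb covariate and 368 to 819 with 1 array left out; the members called there were 1, and 1 to 3 with 1 array left out. Within Mith 5 were called, against 15 on the deposited scale, 2 among the brighter probe sets, 11 with the trended and robust prior, 0 with the Actb covariate, 0 with that cohort fitted alone, and 0 to 176 with 1 array left out. The interaction gave 0, and 0 to 7 with 1 array left out. Between the cohorts 7312 differed, against 4653 among the brighter probe sets. The cause of these changes was not tested, except that fewer probe sets or arrays enter some fits. The Olig2 difference over both cohorts kept its direction in all 20 alternatives and its call in 15, and lay between -0.29 and -0.23 with 1 array left out. Within M.C it kept its call in all 19 alternatives, of which those without a Mith array could not move the difference itself. Neither count includes the fit on only probe sets above the median level, which Olig2, at a mean of 6.71, did not enter.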
